A study of Mus musculus with 8 samples.

Results

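A set of 55 genes that sense or repair DNA damage was followed through single-nucleus RNA sequencing of mouse gastrocnemius, a calf muscle. The genes were listed by name and not by a cut on their measured values, though earlier results of these data were known. They are 55 of the 21207 gene symbols named in all 8 deposited count tables. They were grouped by role into damage signalling (6 genes), homologous recombination and end resection (10), end joining (6), base excision and single-strand breaks (12), nucleotide excision (11), mismatch repair (3), the Fanconi pathway (5) and translesion synthesis (2). Rev3l was also named by the study from these samples, so its direction here is not independent evidence. The study further scored a DNA repair gene set in these nuclei and reported it lower in old and higher in trained mice. The directions of members within that set are thus not independent of that report either.

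The study compared the muscle nuclei of old with those of young mice, and those of trained with those of sedentary mice. All libraries came from gastrocnemius of C57BL/6 mice that the labels give as wild type (WT). Old mice were 20 months and Young mice 3 months of age, and neither group was trained. Running mice were 11 months old when they began 2 months of treadmill training at 9 m per min in sessions of 30 min, and Sedentary mice of the same starting age were not trained. Each group had 1 library that the labels give as 10X Genomics (the first set, marked 10x in plots) and 1 library without that label (the second set, where the methods name another droplet system beside 10x). How many mice gave nuclei to a library is not given in the sources used here, so every p-value measures only the spread between these libraries, which may be technical.

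Cells meet several kinds of DNA damage, and each kind has its own repair route. The kinases ATM and ATR read breaks and stalled forks and pass the signal to CHEK1, CHEK2 and p53. Broken ends are joined directly by the Ku and DNA-PK proteins or copied from the sister chromatid by homologous recombination, small base lesions are cut out by glycosylases and refilled by polymerase beta, bulky lesions are removed by nucleotide excision, and crosslinks need the Fanconi proteins. A myonucleus no longer divides and has no sister chromatid, whereas muscle stem cells can re-enter the cell cycle.

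Promoter sequences are shown for Fanca and Xrcc5, the members with the smallest unadjusted p of Old against Young in the library sums. RefSeq promoters on GRCm38.p6, from 250 bases before to 50 bases after a gene's start, matched 45 of the 55 members with 50 promoters. Sequences run 5′ to 3′ on the gene's own strand. Capitals in the Fanca promoter, at chr8:123318527-123318826 on the minus strand, mark its 2 CCAAT boxes. Capitals in the Xrcc5 promoter, at chr1:72307171-72307470 on the plus strand, mark 1 CCAAT box read on the opposite strand (ATTGG) and 1 match to the NRF1 core (GCGCATGC).
Fanca: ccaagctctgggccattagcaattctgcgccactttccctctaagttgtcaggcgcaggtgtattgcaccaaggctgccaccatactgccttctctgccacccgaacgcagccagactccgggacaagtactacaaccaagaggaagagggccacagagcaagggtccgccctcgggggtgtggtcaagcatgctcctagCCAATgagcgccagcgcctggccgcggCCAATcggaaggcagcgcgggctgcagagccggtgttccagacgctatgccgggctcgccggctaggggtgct
Xrcc5: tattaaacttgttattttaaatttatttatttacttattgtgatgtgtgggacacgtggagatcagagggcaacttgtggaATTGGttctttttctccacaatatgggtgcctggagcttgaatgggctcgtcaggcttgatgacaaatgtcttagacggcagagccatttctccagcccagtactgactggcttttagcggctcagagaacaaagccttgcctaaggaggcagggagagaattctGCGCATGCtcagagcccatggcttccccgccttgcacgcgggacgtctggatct

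The GC content was 63.0% in the Fanca promoter and 48.0% in that of Xrcc5, against a median of 59.7% over the member promoters and 58.0% over the 18469 promoters of tested genes. On both strands, CCAAT stood in 54.0% of the member promoters and in 37.3% of the promoters of tested genes. The GC box GGGCGG stood in 70% against 50.8%, the NRF1 core GCGCATGC in 18% against 4.0%, and an E2F core (TTTGGCG or TTTCGCG) in 10.0% against 3.34%. TATAAA stood in 6.0% of the member promoters and in 9.45% of the promoters of tested genes. These are matches of letters in a fixed window and not measured binding.

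Filters kept 64803 of the 65280 deposited nuclei. A retained library held between 23242685 and 44288625 UMIs, which are counted RNA molecules, in the first set and between 4763152 and 9066518 in the second set. At most 0.39% of the barcodes of a library of the first set were shared with another. The second-set Old library stood apart: 74.5% of its nuclei could not be given a class, against between 3.15% and 33.0% in each other library, and its largest cluster was led by genes of a median length of 1137 kb. It also held 123 CPM summed over a list of 12 cycling genes, against between 22.1 and 35.1 in the other 7 libraries. Fitted values of Old against Young in the library sums that moved with it are given with and without it for most of the members described.

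The members were read in every library, and all 55 passed the filter on low counts. They held 348611 UMIs in all, and 40 members had at least 1000. Levels are given as UMIs of a gene per 1000000 UMIs of the library or class (CPM), and the median member had 16.5 CPM in the first set, against 7.58 for all genes tested, and 37 members lay above that median. In levels per kb of gene length, Rev3l was the highest member with 4.25 CPM per kb, followed by Polb (3.09), Rad52 (2.07), Parp2 (1.62) and Ddb2 (1.58). Rev3l, the catalytic subunit of translesion polymerase zeta, alone held 27.9% of the members' UMIs. The lowest were Brca1, a recombination mediator, with 0.0356 CPM per kb, and the checkpoint kinase gene Chek1 with 0.055 CPM per kb and 194 UMIs in all. Levels were higher for longer genes, with a Spearman rho of 0.65 across the 55 members and 0.39 across 19942 genes, as a description only, since all genes share the same libraries and counting.

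**Figure D1:**
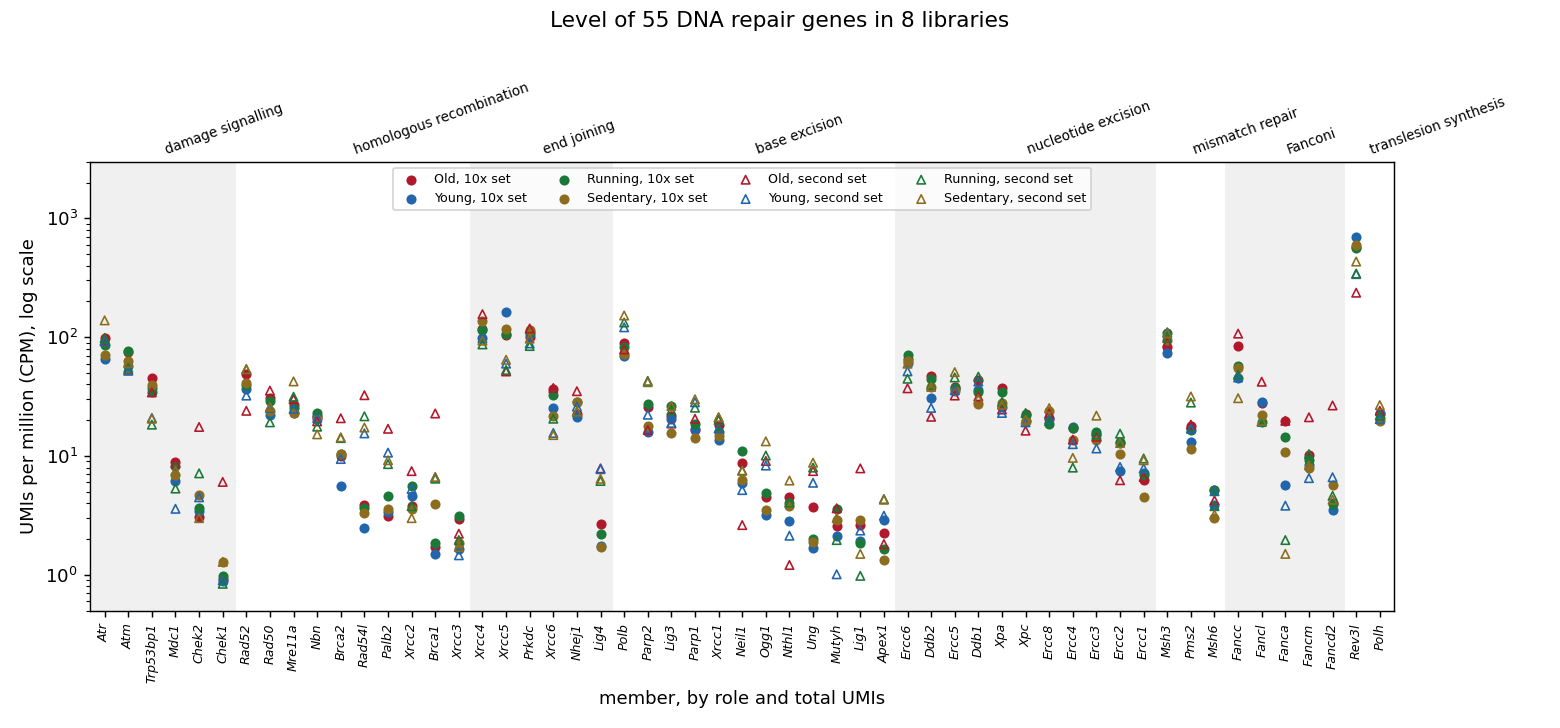
CPM (log axis) of the 55 members, ordered by role, in each of the 4 libraries of the first set (filled circles) and the 4 of the second set (open triangles), with colours for the groups. Rev3l stood highest in every library, and the second-set Old library was the highest of all for Chek1, Chek2, Brca1, Lig1 and Fancd2.

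No member was called between Old and Young. With counts summed per library and fitted over all 8 libraries with the library set as a term, edgeR called 0 of the 55 members and 0 of 20322 genes (0%), and DESeq2 called 0 members as well. At an unadjusted p under 0.05, edgeR had 1 member, Fanca, against 557 genes (2.74%), or 279 (1.37%) counting only those higher in Old, and DESeq2 had 1 member against 1174 genes. The members' median log2 fold change was -0.11, with 19 higher and 36 lower in Old, while the median of all genes was 0.19 with 56.2% higher. In summed libraries, fewer nuclei of a class and less RNA per nucleus cannot be told apart.

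The medians differed between the library sets and with the scaling. On values scaled by TMM, a factor per library that evens out composition, 31 members were higher in Old in the first set (median 0.06, all genes 0.03), but 17 in the second set (median -0.44, all genes 0.27). With library totals in place of TMM factors the median over all genes in the fit moved from 0.19 to 0.61 and that of the members from -0.11 to 0.28, so the sign of the members' median turned. Relative to all genes the second-set median stayed at -0.71 under both scalings, but it varied with the level of the genes in the first set. On TMM-scaled values the second-set medians of members and all genes were 0.55 and 1.58 at 1 to 3 CPM. They were 0.06 and 0.44 at 3 to 10 CPM, and -0.41 and -0.42 at 10 to 30 CPM. At 30 to 100 CPM they were -0.80 and -0.64, and at 100 CPM or more -0.51 and -0.91. Under 1 CPM, with 0 members, the median of all genes was 1.80. Without the second-set Old library the members' median in the fit was 0.064 against -0.07 for all genes. On TMM-scaled values 11 members were higher in Old in both sets (20%, against 34% of all genes) and 18 were lower in both (32.7%, against 26.6%). On library totals these counts were 26 (51.2% of all genes) and 6 (10.5% of all genes).

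Fanca, a core subunit of the Fanconi complex that marks crosslinked DNA for repair, had the largest difference among the members. It had 770 UMIs (Old), 227 (Young), 638 (Running) and 249 (Sedentary) in the first set, and 98, 34, 14 and 7 in the second set. These came to 19.9, 5.75, 14.5 and 10.8 CPM in the first set and 19.8, 3.82, 1.96 and 1.50 CPM in the second set. Old was the highest library of each set. The log2 fold change of Old against Young was 1.71 (edgeR, SE 0.74, adjusted p 0.693), with 1.56 in the first set and 1.74 in the second set. Without the second-set Old library it was 0.82 (SE 0.77), and over all libraries left out in turn it lay between 0.82 and 2.45. Of the 98 Fanca UMIs in the second-set Old library, 81 came from nuclei with no class name. Fanca lies at chr8:123268300-123318576 on the minus strand of GRCm38, and Zfp276 and Gm20388 overlap it on the opposite strand, so without knowing whether the counting used strand their reads cannot be told apart.

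The other Fanconi genes were read beside it. Fancc, another core complex subunit, had 84.8 CPM in Old and 45.2 in Young in the first set, and 107 and 45.8 in the second set, against 57.7 in Running and 55.3 in Sedentary, then 48.4 and 30.7. Old was again the highest library of each set, and the log2 fold change was 0.65 (edgeR, SE 0.35, adjusted p 0.693), between 0.49 and 0.78 with each library left out and 0.53 without the second-set Old library. Fancc overlaps 5 annotated genes on its own strand and 5 on the opposite strand, whose reads may not be told apart from its own. Fancl, the ubiquitin ligase of the complex, had 27.9 and 28.3 CPM in Old and Young of the first set and 42.2 and 19.4 in the second set, with a log2 fold change of 0.11 (SE 0.40) that was -0.07 without the second-set Old library, and it overlaps Vrk2. Fancm, a translocase, and Fancd2, the protein that the complex ubiquitinates, differed mainly in the second set, where Old had 21.2 CPM of Fancm against 6.52 in Young and 26.6 of Fancd2 against 6.63. All 5 Fanconi members had a log2 fold change above 0 in the fit (median 0.65), but 3 of 5 without the second-set Old library (median 0.24), where Fancm had 0.24 and Fancd2 -0.33. Summed over the 5, the libraries held 147 CPM (Old), 91.1 (Young), 105 (Running) and 102 (Sedentary) in the first set and 217, 82.3, 84.8 and 64.5 in the second set. The part of the second-set Old library's composition in these sums was not tested.

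Among the end joining genes Xrcc5 stood apart. It encodes Ku80, which with the Xrcc6 product Ku70 holds a broken end. Xrcc5 had 103 CPM (Old), 164 (Young), 106 (Running) and 116 (Sedentary) in the first set, and 51.5, 59.9, 53 and 64.5 in the second set. Old was the lowest library of each set, and Young was the highest of the first set only. The log2 fold change of Old against Young was -0.86 (edgeR, SE 0.37, adjusted p 0.693), with -0.88 and -0.83 within the sets on TMM-scaled values and -0.66 and -0.22 on library totals. With each library left out it lay between -1.14 and -0.61, and without the second-set Old library it was -0.69. Xrcc5 lies at chr1:72307421-72394952 on the plus strand of GRCm38 with no overlapping gene.

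Xrcc6, the other Ku subunit, had 36.5 CPM in Old and 25.4 in Young in the first set and 37.3 and 15.6 in the second set, with a log2 fold change of 0.47 (SE 0.38). The fitted values of the Ku genes thus lay on opposite sides of 0, but neither passed the test and their difference was not tested. Xrcc4, the scaffold of ligase IV, had 118 and 98 CPM in Old and Young of the first set and 156 and 97.7 in the second set (log2 fold change 0.06, SE 0.33, and -0.07 without the second-set Old library). Prkdc, the DNA-PK kinase, had 101 and 106, then 118 and 88.6 CPM (log2 fold change -0.24, SE 0.33). Nhej1 and Lig4 had log2 fold changes of -0.15 and -0.07, and of -0.27 and 0.28 without the second-set Old library.

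Rev3l had 569 CPM (Old), 703 (Young), 565 (Running) and 593 (Sedentary) in the first set, and 237, 339, 343 and 433 in the second set. Old was below Young in both sets, but Running was lower still than Old in the first set. The log2 fold change of Old against Young was -0.77 (edgeR, SE 0.44, adjusted p 0.693), and -0.34 (SE 0.34) without the second-set Old library. Polh, which encodes the translesion polymerase eta, had 22.4 and 23.0 CPM in Old and Young of the first set and 24 and 20.5 in the second set, with a log2 fold change of -0.31 (SE 0.42) under TMM and -0.10 without the second-set Old library. Rev3l kept its sign within both sets under both scalings, while Polh was 0.23 higher in Old in the second set on library totals.

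Damage signalling genes showed no common direction in the TMM fit of all libraries. On library totals 5 of 6 were higher in Old in both sets (83.3%, against 51.2% of all genes) and 0 were lower in both (10.5% of all genes). On TMM-scaled values 2 of 6 were higher in both (33.3%, against 34% of all genes) and 0 were lower in both (26.6% of all genes). Without the second-set Old library 4 of 6 were above 0 in the fit (median 0.12). Atr had 98.3 CPM in Old and 65.7 in Young in the first set and 93.6 and 92.3 in the second set. Atm had 75.4 and 57.8, then 53.3 and 52.1 CPM. Trp53bp1, whose product 53BP1 shields broken ends, had 45.0 and 37.1, then 34.3 and 20.9 CPM, and it overlaps Tubgcp4. For these 3 genes Old was above Young in each set on library totals, but the fold changes were -0.05 (SE 0.44), -0.17 (SE 0.39) and 0.08 (SE 0.36) on the log2 scale with TMM, and 0.43, 0.17 and 0.06 without the second-set Old library. Chek1, Chek2 and Mdc1, a scaffold at breaks, had fitted values of 1.15, 0.60 and 0.48, and for the 2 kinases that came from the second set, where Chek1 had 30 UMIs in Old and 8 in Young and Chek2 had 87 and 40. Over the first set Chek1 had 36 UMIs in Old and 35 in Young, and Chek2 had 119 and 136.

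Brca1 and Lig1 showed a like split. Brca1 had 22.8 CPM in the second-set Old library and between 6.45 and 6.65 in the other 3 of that set, and Lig1, the replicative DNA ligase, had 7.87 CPM there and between 0.981 and 2.36 in the others. In the first set their log2 differences between Old and Young were -0.03 and 0.21. Without the second-set Old library the fitted values of Chek1, Chek2, Brca1 and Lig1 were -0.16, -0.40, -0.29 and -0.15, and that of Mdc1 was 0.51. The cycling genes listed beside them were also highest in that library, and the part of cycling nuclei or of that library's unnamed cluster in these values was not tested.

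Genes of homologous recombination and end resection were spread around 0, with 5 of 10 higher in Old in the fit. Rad52, a strand annealing protein, had 49.1 CPM in Old and 36.4 in Young in the first set and 24 and 32.3 in the second set, so the sets differed in direction (log2 fold change -0.25, SE 0.54, and 0.42 without the second-set Old library). Rad50 had 31.0 and 22.3, then 35.5 and 25.4 CPM (0.07, SE 0.40, and 0.16 without that library), and Mre11a, its nuclease partner, had 27.0 and 22.9, then 30.1 and 24.9 CPM (-0.13, SE 0.44, and 0.20 without that library). Nbn, the third gene of that complex, had -0.47. Brca2 and Rad54l, which load and move the recombinase, had 0.58 and 0.44, with Brca2 at 10.1 CPM in Old against 5.6 in Young in the first set and 20.8 against 9.44 in the second set. Palb2, Xrcc2 and Xrcc3 had values between -0.29 and 0.35, and of -0.48, -0.66 and 0.59 without the second-set Old library.

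Most base excision genes had higher values in Old in the first set and lower ones in the second set. On TMM-scaled values 9 of 12 were higher in Old in the first set (median 0.21) and 2 of 12 in the second set (median -0.83). On library totals these counts were 10 and 5 of 12, with a second-set median of -0.22, and in the fit without the second-set Old library 9 of 12 were above 0. Polb, the gap-filling polymerase, had 88.5 CPM in Old and 69.7 in Young in the first set and 78.9 and 121 in the second set (log2 fold change -0.43, SE 0.48, and 0.19 without the second-set Old library). Parp2, a sensor of single-strand breaks, had 26.1 and 15.8, then 16.5 and 22.3 CPM (-0.07, SE 0.59, and 0.67 without that library). Lig3 had 21.9 and 20.4, then 18.8 and 19.0 CPM (-0.33, SE 0.48, and 0.04 without it). The other 9 members lay between -0.82 for Apex1, the abasic site nuclease, and 0.77 for Lig1, with none past the test. Without the second-set Old library Apex1 had -0.16 and Lig1 -0.15.

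The nucleotide excision genes had fitted log2 fold changes below 0 with all 8 libraries, but 6 of 11 were above 0 without the second-set Old library (median 0.02). With all libraries the 11 values lay between -0.59 for Ercc1 and -0.03 for Ercc2 with a median of -0.36. Without the second-set Old library Ercc1 had -0.22 and Ercc2 0.66. On TMM-scaled values 0 of 11 were higher in Old in the second set against 4 of 11 in the first set. On library totals 7 of 11 were higher in Old in the first set and 4 of 11 in the second set. Ercc6, the Cockayne syndrome helicase, had 65.4 CPM in Old and 60.5 in Young in the first set and 37.1 and 51.6 in the second set (log2 fold change -0.54, SE 0.42, and -0.11 without the second-set Old library). Ddb2, a damage recognition subunit and p53 target, had 47.4 and 30.8, then 21.4 and 25.4 CPM (-0.11, SE 0.49, and 0.50 without the second-set Old library), and it overlaps Acp2. Ercc5, an incision nuclease, had 38.1 and 36.4, then 32.3 and 35.7 CPM (-0.40, SE 0.44, and 0.02 without that library).

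In mismatch repair, Msh3 had 82.8 CPM in Old and 74.2 in Young in the first set and 89.8 and 110 in the second set (log2 fold change -0.47, SE 0.37, and -0.21 without the second-set Old library). Pms2 had 17.9 and 13.2, then 18.4 and 17.0 CPM (-0.05, SE 0.55, and 0.48 without that library). Msh6, which takes part in recognising single mismatches, had 5.16 and 3.90, then 4.24 and 5.06 CPM (-0.31, SE 0.66, and 0.04 without it). All 3 were higher in Old in the first set on library totals, whereas 1 of 3 was in the second set.

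**Figure D2:**
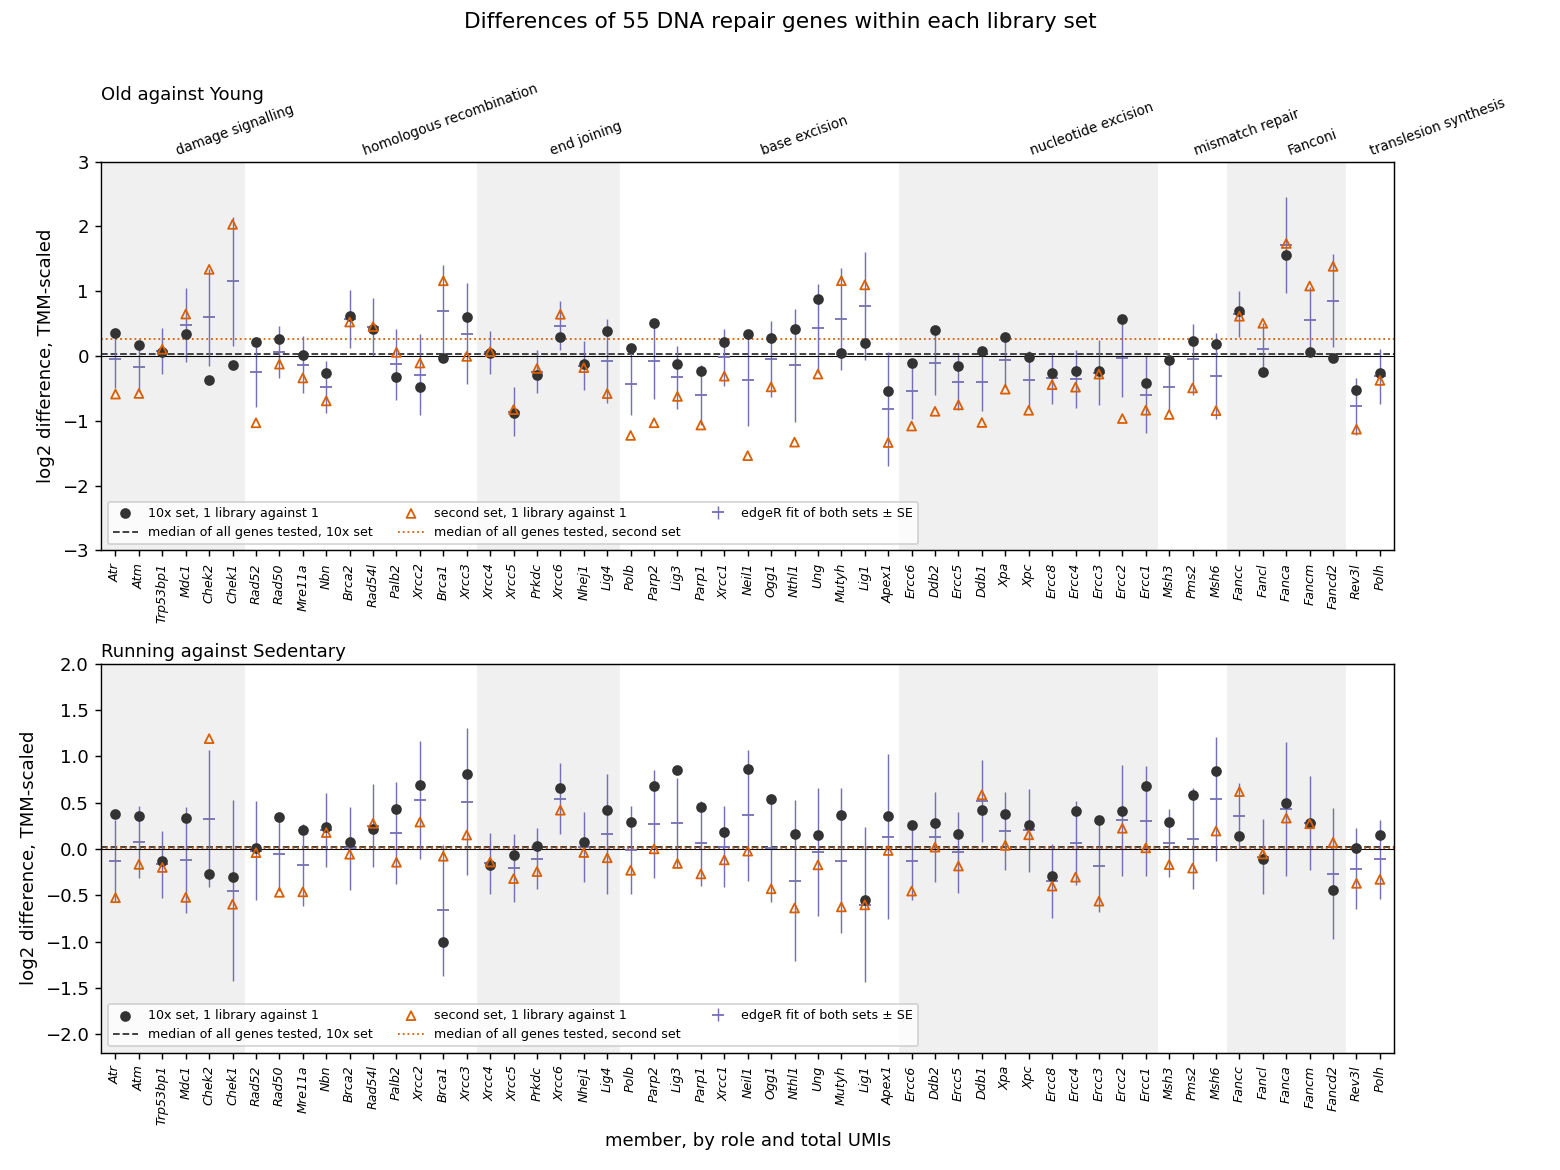
TMM-scaled log2 differences of the 55 members, ordered by role, for Old against Young (top) and Running against Sedentary (bottom): filled circles for the first set, open triangles for the second set, crosses with bars for the edgeR fit of all 8 libraries ± SE, and horizontal lines for the medians of all genes tested. Fanca (1.56 and 1.74) and Xrcc5 (-0.88 and -0.83) lay together in both sets, while most base and nucleotide excision genes had their second-set value below that of the first set.

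No member was called between Running and Sedentary. By edgeR 0 of the 55 members and 0 of 20322 genes (0%) were called, with 0 members and 98 genes (0.482%, and 0.3% counting only those higher in Running) at an unadjusted p under 0.05. DESeq2 called 0 members too, with 0 members and 392 genes at an unadjusted p under 0.05. The members' median log2 fold change was 0.02 with 31 higher in Running, against -0.04 and 46.5% for all genes. In the first set 45 members were higher in Running (median 0.28, all genes 0.02), and in the second set 18 were (median -0.14, all genes 0.01). The first-set median of all genes was -1.38 under 1 CPM, where 0 members lay. Medians of members and all genes were 0.26 and -0.47 at 1 to 3 CPM, and 0.33 and 0.23 at 3 to 10 CPM. At 10 to 30 CPM they were 0.33 and 0.28, at 30 to 100 CPM 0.28 and 0.15, and at 100 CPM or more -0.03 and 0.01. Across both sets, 16 members were higher in Running in both (29.1%, against 26.5% of all genes) and 8 were lower in both (14.5%, against 24.2%). On library totals the counts were 18 (26.2% of all genes) and 13 (25.7% of all genes).

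Xrcc6 had the largest fitted value, just above Msh6 (0.54, SE 0.67). It had 32.7 CPM in Running and 21.8 in Sedentary in the first set and 20.6 and 15.0 in the second set, with a log2 fold change of 0.54 (edgeR, SE 0.38, adjusted p 1.0). Ddb1, a subunit of a damage recognition ligase, had 34.9 and 27.4, then 46.5 and 30.2 CPM, with 0.52 (SE 0.45). Fanca, Fancc and Fancm were higher in Running in both sets, with log2 fold changes of 0.43, 0.36 and 0.28 and SEs of 0.73, 0.36 and 0.51. The lowest fitted value was -0.66 for Brca1, which had 92 UMIs in the Sedentary library of the first set against 81 in the deeper Running library. Rev3l had -0.21 (SE 0.43), with 0.01 in the first set and -0.37 in the second set.

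By role, Running was above Sedentary in the first set for 11 of 12 base excision genes (median 0.36), 10 of 11 nucleotide excision genes (0.32) and 9 of 10 recombination genes (0.23). In the second set these counts were 1 of 12, 6 of 11 and 4 of 10. Polb showed the split, with 82.8 CPM in Running and 71.5 in Sedentary in the first set and 133 and 152 in the second set. Parp2 had 27.4 and 18, then 42.9 and 41.8 CPM, and Lig3 had 26.6 and 15.5, then 24.2 and 26.4 CPM. The Sedentary library of the first set had the lowest depth of its set and 33.0% of its nuclei unnamed, and the part of either in these differences was not tested. Across the members the difference in the first set was lower for longer genes (Spearman rho -0.51 over 55 members, -0.35 over 19942 genes), as a description. Beside the role medians, the first-set medians of all genes were 0.23 at 3 to 10 CPM and 0.28 at 10 to 30 CPM. By length they were 0.40 under 10 kb, 0.10 at 10 to 30 kb and -0.11 at 30 to 60 kb.

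Atr had 86.3 CPM in Running and 70.2 in Sedentary in the first set and 98.5 and 139 in the second set. Atm had 75.8 and 62.6, then 55.2 and 60.5 CPM, and Trp53bp1 had 34.4 and 39.8, then 18.4 and 20.6 CPM. The fitted log2 fold changes of these 3 lay between -0.17 and 0.08. In recombination, Rad52 had 39.6 and 41.4, then 53.7 and 53.8 CPM. Rad50 had 28.8 and 23.9, then 19.2 and 25.9 CPM, and Mre11a had 25.3 and 23.2, then 31.5 and 42.5 CPM. Rad50 and Mre11a were thus higher in Running in the first set and lower in the second set, while Nbn, of the same complex, had 22.8 and 20.4, then 17.7 and 15.2 CPM and was higher in Running in both. Xrcc4 and Prkdc had a lower CPM in Running in both sets, though with TMM Prkdc was higher in Running in the first set. Xrcc4 had 114 and 136, then 86.9 and 93.5 CPM, and Prkdc had 111 and 114, then 84.2 and 97.3 CPM. Of 3 nucleotide excision genes, Ddb2 was the one with a higher CPM in Running in both sets. Ercc6 had 70.8 and 62.5, then 44.7 and 59.8 CPM, Ddb2 had 44.3 and 38.4, then 39.7 and 38.2 CPM, and Ercc5 had 37.2 and 35.1, then 45.8 and 50.8 CPM. In mismatch repair the values were 109 and 94.2, then 98.5 and 108 CPM for Msh3, 16.4 and 11.5, then 28.2 and 31.7 CPM for Pms2, and 5.19 and 3.02, then 3.78 and 3.22 CPM for Msh6. Msh6 was the only one of the 3 that was higher in Running in both sets. Fancl had 19.3 and 22, then 19.5 and 19.7 CPM, and Polh had 20.9 and 19.8, then 21.9 and 26.8 CPM.

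Nuclei were then grouped into classes by clustering and marker genes, separately in each library set, and the classes are named for the markers they resemble. In the first set 11 classes had at least 20 nuclei in all 4 libraries. Differences between classes are descriptions without a test, since the same genes took part in the clustering. With the 55 members added up, muscle stem cell nuclei held 2815 CPM (range over 4 libraries 2592 to 3046), Type IIb myonuclei, the nuclei of the fastest fibres, held 2221 (2136 to 2335), and pericytes and smooth muscle held the least with 1720 (1599 to 1872). Without Rev3l stem cells still held the most with 1934 CPM, but the order of the others changed. Adipocytes (1580), macrophages (1544) and endothelial nuclei (1488) then lay above Type IIb myonuclei (1456), and the neuromuscular junction was lowest (1321).

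Muscle stem cell nuclei were the highest class for 19 of the 55 members (34.5%, against 14.5% of all genes), macrophages for 10 (18.2% against 16.7%) and adipocytes for 6 (10.9% against 21.2%). In a library, between 34 and 47 members were higher in stem cells than in Type IIb myonuclei. That is between 61.8% and 85.5% of the members, against between 44.5% and 59.4% of all genes. The members' median log2 difference between these classes was 0.49 on the mean of 4 libraries, and it was 0.37 over all genes. Among genes of at least 10 CPM the order of the medians turned, with 0.42 for the members and 0.49 for all genes. By share, 81.1% of the 37 members at that level were higher in stem cells, against 72.2% of 9781 genes. The excess in the median thus depended on the level of the genes compared.

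The class with the highest level was the same in all 4 libraries of the first set for 12 of 55 members (22.3% of all genes did so), a share near that of all genes. In stem cells these were Apex1, Atm, Atr, Fancd2 and Rev3l (9.09% of the members, against 2.53% of all genes). Fancd2 had 47.4, 24.3, 36.4 and 39.6 CPM in the stem cells of Old, Young, Running and Sedentary, and 11.2 CPM or less in the other 10 classes. Rev3l had between 823 and 935 CPM in stem cells and between 184 and 328 in macrophages. Apex1 had a mean of 8.79 CPM in stem cells over 28 UMIs in all, so its lead rests on few molecules. Stem cell nuclei held 70.5 CPM summed over the cycling list, between 14.8 in Type IIb myonuclei and 142 in macrophages.

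Endothelial nuclei were the highest class in all 4 libraries for Chek2 and for Ercc1, the partner of the Ercc4 nuclease (3.64% of the members, against 2.81% of all genes). Chek2 had 24.5, 37.3, 22.3 and 23.5 CPM there in Old, Young, Running and Sedentary and at most 18.9 in any other of the 11 classes, reached in macrophages. Macrophages led for Fancl (mean 74.2 CPM against 13.6 in Type IIa/IIx myonuclei), Mdc1 and Parp1 (5.45% against 5.74% of all genes), and pericytes and smooth muscle for Mutyh, an adenine glycosylase, on 22 UMIs (1.82% against 1.69%). Type IIb myonuclei led in all 4 libraries for Xrcc5 only (1.82% against 0.635% of all genes), with a mean of 175 CPM against 37.4 in macrophages.

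**Figure D3:**
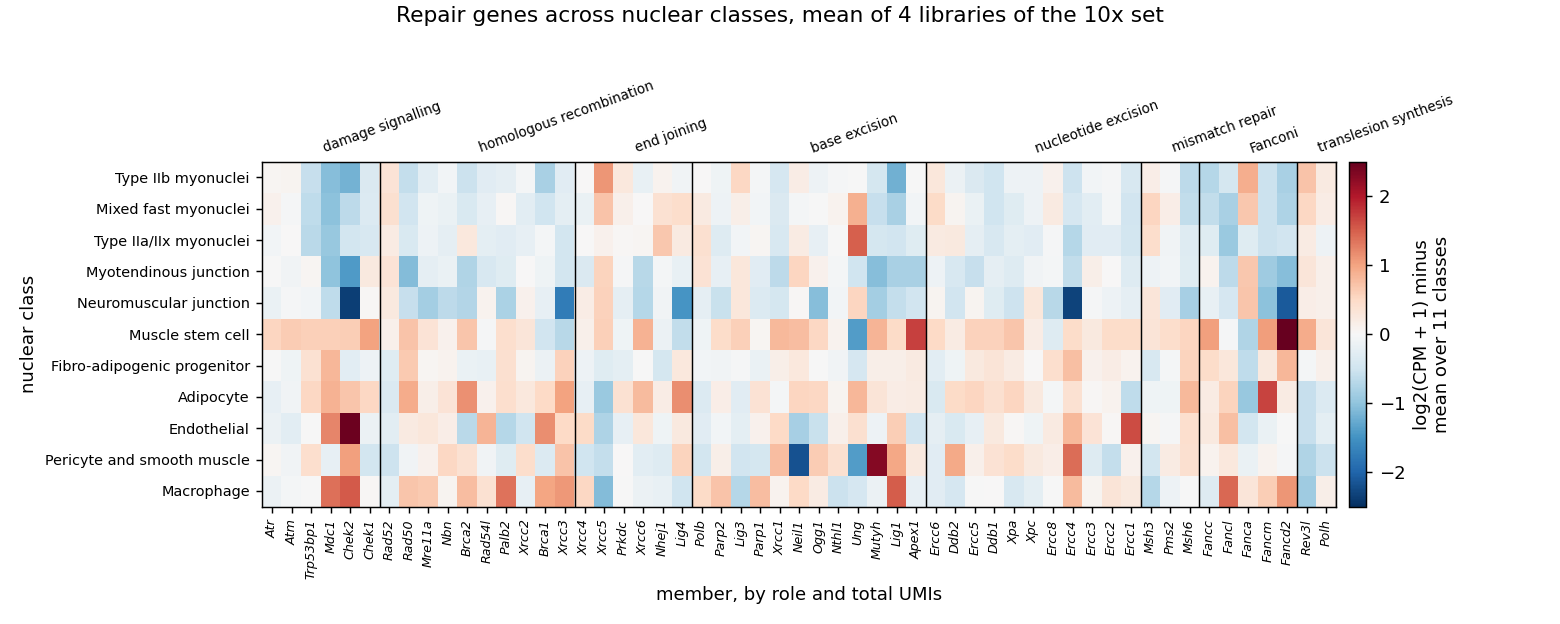
Level of each member (columns, by role) in 11 nuclear classes of the first set (rows), as log2(CPM + 1) of the mean of 4 libraries minus the mean over the classes; red is above and blue below that mean. Muscle stem cells led for 19 of the 55 members, among them Fancd2 (36.9 CPM), Chek2 was high in endothelial nuclei (26.9 CPM), and Xrcc5 (175 CPM) and Fanca (18.9 CPM) were highest in Type IIb myonuclei.

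Within classes, Old and Young were tested in 4 classes with at least 20 nuclei in all 8 libraries, and 0 members were called. Of the members 52 could be tested in Type IIb myonuclei, 43 in Type IIa/IIx myonuclei, 46 in mixed fast myonuclei and 27 at the myotendinous junction, where fibres meet tendon. edgeR called 117 of 13495 genes (0.867%) in Type IIb myonuclei and 0 in the other 3 classes (0%). At an unadjusted p under 0.05 there were 2, 1, 3 and 1 members in these classes, against 8.36%, 4.39%, 5.24% and 3.59% of all genes. The members' medians were 0.10, 0.13, -0.02 and 0.27 on the log2 scale, and those of all genes were -0.02, 0.03, 0.02 and -0.07. The second-set Old library gave only 33 Type IIb nuclei, against 396, 2624 and 2890 in the other libraries of its set. Nearly all Old nuclei of that class thus came from the first set (3618). The number of genes called there still changed when a second-set library was left out. With all fast myonuclei summed together, Fanca (1.79, SE 0.55) and Xrcc5 (-0.85, SE 0.30) were the members with an unadjusted p under 0.05 in Old against Young (3.91% of all genes were) and 0 members were in Running against Sedentary (1.1% of all genes were), with 0 of 17439 genes called by edgeR in either.

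Fanca in Type IIb myonuclei came nearest to the threshold. It had 477 UMIs (Old), 150 (Young), 349 (Running) and 68 (Sedentary) in the first set and 1, 1, 9 and 6 in the second set, which came to 32.4, 6.86, 19.4 and 17.1 CPM and to 31.3, 1.48, 2.16 and 1.94 CPM. In the first set Old was the highest and Young the lowest. The log2 fold change was 2.10 (edgeR, SE 0.60, adjusted p 0.067). It was past the threshold on library totals (2.29, adjusted p 0.0455) and without the second-set Young library (2.06, adjusted p 0.00831), and over all alternatives its adjusted p lay between 0.00831 and 1.0, with 1.82 (adjusted p 0.562) at a coarser clustering. Without the Young library of the first set the value was 1.39 (adjusted p 0.926), and without the Old library of that set, which leaves 1 Old UMI, it was 4.50 (adjusted p 0.534).

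Fanca was higher in Old than in Young in 11 of 11 classes of the first set, as were Atr and Ddb2, which makes 3 of 55 members against 3.41% of all genes. The counts behind this were small outside muscle fibres, with 6 Fanca UMIs in the stem cells of Old and 0 in those of Young, and 8 and 0 in endothelial nuclei. In the T cell and B cell nuclei, which were too few in other libraries to be among the 11 classes, Young was higher with 7 UMIs in each against 3 and 1. In all, 8 members were higher in Old in at least 10 of 11 classes (8.83% of all genes were): beside those 3 they were Fancc, Nthl1, Polb, Rad52 and Xrcc4. Lower in at least 10 classes were Xrcc5 and Ercc1 (2.51% of all genes were), and 0 members were lower in 11 (0.915% of all genes were).

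Xrcc5 in Type IIb myonuclei had 2263 UMIs in Old and 4880 in Young in the first set, or 153 and 223 CPM, beside 136 in Running and 187 in Sedentary. In the second set the values were 31.3 CPM in Old on 1 UMI, 87.5 in Young, 55.9 in Running and 72.2 in Sedentary. Old was below Young in both sets, with a log2 fold change of -0.81 (edgeR, SE 0.39, adjusted p 0.557), but Running was lower than Old in the first set. The value was -2.10 without the Old library of the first set and -0.52 at the coarser clustering. In mixed fast myonuclei Old had 126 and 49.5 CPM and Young 167 and 75.2, with -0.62 (SE 0.25). In fibro-adipogenic progenitors, the fibroblast-like cells of muscle, Xrcc5 had 58.9 CPM in Old and 59.3 in Young. These progenitors made up 28.9% of nuclei in Old and 18.3% in Young in the first set, and Type IIb myonuclei 31.0% and 52.0%. In the second set Type IIb myonuclei made up 0.69% and 8.78%, where 74.5% of Old nuclei were unnamed. The part of these shares in the library sums of Xrcc5 was not tested.

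Fancc differed most in Type IIa/IIx myonuclei. It had in the first set 485 UMIs in Old (112 CPM) and 32 in Young (28.3 CPM), and in the second set 9 UMIs in Old (58.3 CPM) and 82 in Young (42.5 CPM). Old was above Young in both sets, with a log2 fold change of 1.37 (edgeR, SE 0.40, adjusted p 0.704). It was 0.45 without the Old and 0.84 without the Young library of the first set, and 0.87 at the coarser clustering. At the myotendinous junction its log2 fold change was 1.15 (SE 0.54), and in Type IIb myonuclei it had 56.4 CPM in Old and 22.3 in Young in the first set. In adipocytes the order was the other way, with 90 CPM in Old and 107 in Young. Fancm in mixed fast myonuclei had 8.39 CPM in Old and 3.19 in Young in the first set and 21.8 and 5.35 in the second set (log2 fold change 1.58, edgeR SE 0.63, adjusted p 0.938).

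**Figure D4:**
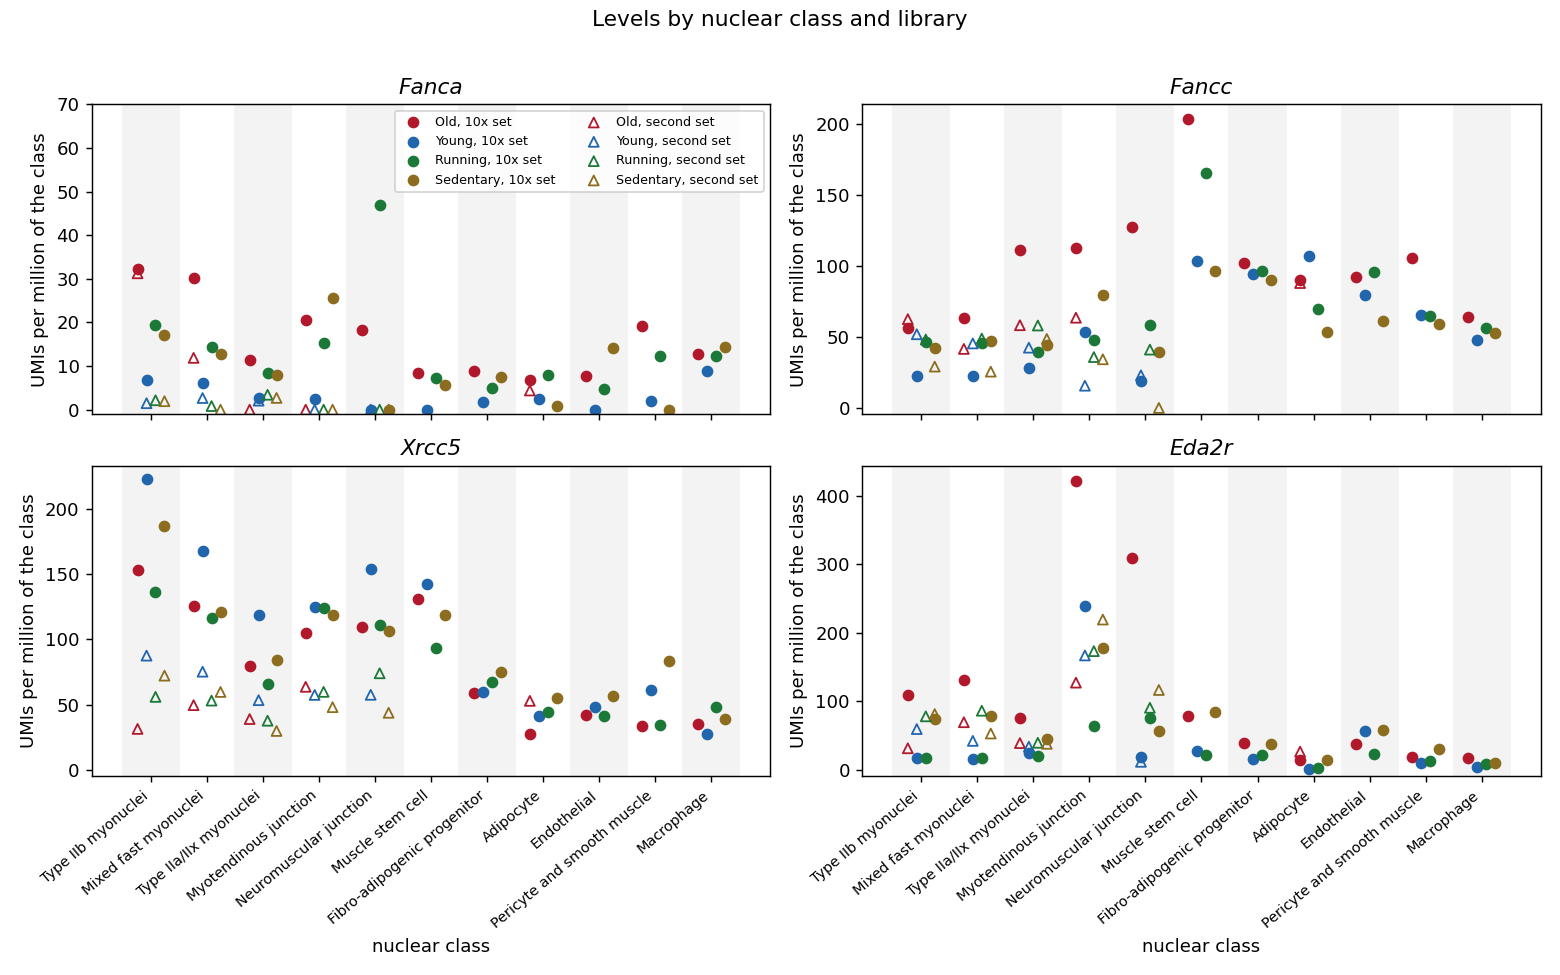
CPM within the class for Fanca, Fancc, Xrcc5 and Eda2r in 11 nuclear classes, with filled circles for the first set and open triangles for second-set libraries with nuclei of that class, coloured by group. Old (red) was highest for Fanca in Type IIb myonuclei of the first set (32.4 CPM) and Young (blue) highest for Xrcc5 (223 CPM), while Eda2r was higher in Old than in Young in the first set (109 against 17.6 CPM) and lower in the second set (31.3 against 59.3).

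Running and Sedentary were tested in the same 4 classes and at the neuromuscular junction, where 12 members could be tested in 7 libraries, and 0 members were called. edgeR called 13 of 13495 genes in Type IIb myonuclei (0.0963%), 1 of 3781 at the neuromuscular junction (0.0264%) and 0 in the other 3 classes (0%). The members with an unadjusted p under 0.05 were Lig3 in mixed fast myonuclei and Xrcc4 at the neuromuscular junction, where 2.84% and 4.6% of all genes did so. In Type IIb and Type IIa/IIx myonuclei and at the myotendinous junction 0 members did, against 3.76%, 2.73% and 3.31% of all genes. Lig3, the ligase of single-strand break repair, had 28.0 CPM in Running and 10.1 in Sedentary in the first set and 21.5 and 17.0 in the second set (log2 fold change 0.99, edgeR SE 0.43, adjusted p 1.0). Xrcc4 had 111 and 190, then 65.7 and 218 CPM at the neuromuscular junction (-1.11, SE 0.47, adjusted p 0.993). In the first set Running was above Sedentary in at least 10 of 11 classes for 8 members, Ddb1, Ercc1, Lig3, Parp1, Pms2, Polb, Rad54l and Xrcc6 (8.59% of all genes were), and below in as many classes for 0 members (4.63% of all genes were). In 11 of 11 classes Parp1 was higher (2.91% of all genes were) and 0 members were lower (1.55% of all genes were).

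The other genes of these pathways gave no called gene in the library sums either. Of 76 further repair genes 28 were higher in Old (median -0.18) and 39 were higher in Running (median 0.02), with 0 called and 0 at an unadjusted p under 0.05 in either comparison, by edgeR. Of 16 targets of p53, the factor that damage signalling activates, 7 were higher in Old (median -0.01) and 9 in Running (median 0.12), with 0 called and 1 and 0 at an unadjusted p under 0.05. The sets differed for Old against Young, with 11 of 16 p53 targets higher in Old in the first set (median 0.29) and 5 of 16 in the second (median -0.80). Without the second-set Old library 13 of 16 were above 0 in the fit (median 0.27, all genes -0.07). Of the 76 further repair genes 37 were then above 0 (median -0.009). Of the 11 cycling genes tested 8 were higher in Old (median 0.56), with 0 called and 0 at an unadjusted p under 0.05. That direction came from the second set, with 9 of 11 higher (median 1.41) against 4 of 11 in the first set (median -0.28). Within classes 0 of the further repair genes were called. In Type IIb myonuclei 12 of 15 p53 targets were higher in Old (median 0.43), against 48.6% of all genes (median -0.02). There 1 was called, Eda2r, against 0.867% of all genes. At an unadjusted p under 0.05 by edgeR there were 4 of 15, against 8.36% of all genes.

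Eda2r, a receptor of the tumour necrosis factor family and p53 target, rose in Old Type IIb myonuclei by the fit, with a log2 fold change of 1.87 (edgeR, SE 0.43, adjusted p 0.011). It had 109 CPM (Old), 17.6 (Young), 16.4 (Running) and 73.6 (Sedentary) in the first set, and 31.3, 59.3, 77.9 and 81.2 CPM in the second set, where Old gave 1 UMI. Old was therefore above Young in the first set and below it in the second set. The call was lost without the library set as a term (1.18, adjusted p 1.0), at the coarser clustering (1.77, adjusted p 0.370) and without the second-set Old library (2.27, adjusted p 0.214), the Young (1.43, 0.534) or Running (1.50, 0.618) library of the first set or the second-set Running library (1.54, 0.473). Without the Old library of the first set the value was -1.32 (adjusted p 0.880).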

How the data were processed

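Single-nucleus RNA was measured in 8 gastrocnemius libraries. The files the authors deposited hold raw UMI counts by gene and nucleus, made per the methods with Cell Ranger for 10x libraries and with PISA for another droplet system. The submitters' processing notes name Cell Ranger 6.1.2 and mm10 for all 8 libraries, so which tool made the second set is not certain. Whether intronic reads or strand were used in counting is not given in the sources used here, and 32 of 55 members overlap another gene of GENCODE vM21.

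Nuclei were kept if they had above 200 and below 6000 detected genes and less than 6% mitochondrial UMIs. No doublet caller was run. As the study did, 12 mitochondrial and 85 genes of ribosomal proteins were dropped. Counts were added up within each library, and within each class of a library that held at least 20 nuclei. Clusters (scanpy 1.11.5, leidenalg 0.10.2, 2000 variable genes, 30 components, 20 neighbours, resolution 1.0, alternative 0.5) were named from 16 marker lists, with limits set after the clusters had been seen, and markers of several classes or of none left a cluster unnamed.

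Sums were tested with the quasi-likelihood F-test of edgeR 4.0.16 under R 4.3.3 (filterByExpr, TMM, Benjamini-Hochberg over all genes of a fit, threshold 0.05) over all libraries with group and library set as terms, which left 3 residual degrees of freedom. The study's rank test on nuclei was not used, because nuclei are not replicates. CPM values use library or class totals without scaling factors and were compared within a library set. A difference within a set compares single libraries, so it has no test. Values were given for the 3 members of each role with the most UMIs, and for others by range or where their values stood out. Replicate numbers follow deposition order and pair no libraries. Members, lists and comparisons were chosen with earlier results of these data known.

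Alternatives were DESeq2 1.42.0, its size factors, no filter, no library set term, fewer libraries, other nuclei or genes, and each library left out. Library totals, the fit without 2 libraries and the fast myonuclei summed together were added after the data had been seen. On counts simulated for Old against Young over 20110 genes, the fit recovered 17.2% of genes changed by 2 on the log2 scale and 66% of those changed by 4.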

Additional observations from a re-analysis of the deposited data

How the results depend on the processing

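No alternative called a member in the library sums. The members' median log2 fold change of Old against Young lay between -0.63 and 0.064 with each library left out, and was 0.28 on library totals, an alternative added after the data had been seen. That of Running against Sedentary lay between -0.22 and 0.39 with each library left out. Within classes, members called between Old and Young numbered between 0 and 1 with each library left out and 1 on library totals, in both cases Fanca in Type IIb myonuclei. For Running against Sedentary no library left out gave a called member (0 to 0). Without the library set as a block 0 members were called in either comparison, and the Old against Young median was -0.12. The replicate numbers pair no libraries, so no other paired fit was made.

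Of the values of the 23 named members with a library left out, 19 of 184 changed sign for Old against Young and 30 of 184 for Running against Sedentary. Under the other alternatives 25 of 230 and 17 of 230 did. Over all genes, calls in Type IIb myonuclei between Old and Young numbered between 0 and 403 with a library left out and 6 at the coarser clustering, against 117. Without the second-set Old and the first-set Sedentary library together 178 genes and 0 members were called between Old and Young. The cause of these changes was not tested. Depth limits Chek1, Apex1, Lig1, Xrcc3, Mutyh and Lig4, which had fewer than 500 UMIs in all 8 libraries together. On counts simulated for genes of all levels, with no difference between the sets, the fit recovered 17.2% of changes of 2 on the log2 scale.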
